A study of Rattus norvegicus with 16 samples.

Results

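The genes described here are chaperones, folding enzymes and quality-control factors of the endoplasmic reticulum (ER) and chaperones and proteases of mitochondria, 32 genes chosen by name and matched by symbol to the probe sets of a rat array. Of these, 31 had a probe set that carries their symbol alone, among 22093 genes measured: 21 of the 22 ER genes and all 10 mitochondrial genes. The remaining gene, Manf, which encodes a secreted ER cochaperone, shares its probe set with other symbols and has no value here. RNA came from liver pieces of male Wistar rats (strain RccHan:WIST), 7 to 8 weeks old when assigned, that ate feed containing 3000 ppm phenformin or untreated feed for 3 or 14 days. Each of the 4 groups (control and phenformin, at day 3 and at day 14) had 4 arrays, which the sample titles call biological replicates. The protocols state 5 animals per group, housed with 2 or 3 to a cage, and cage mates were not stated. No genetic change or other agent was used in any group. Phenformin is a biguanide, a drug class that lowers blood glucose and inhibits complex I of the mitochondrial respiratory chain.

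Proteins that enter the ER are folded with the help of Hsp70 and Hsp90 type chaperones, disulfide isomerases and the lectins calnexin and calreticulin. Proteins that fail to fold are moved back to the cytosol and degraded, a route called ER-associated degradation. When unfolded proteins build up, the sensors IRE1, PERK and ATF6 start the unfolded protein response, in which the transcription factors ATF6 and spliced XBP1 raise many of the genes listed here. Mitochondria hold a separate system, with Hsp70 and the Hsp60 and Hsp10 chaperonin for folding and the ATP-dependent proteases LON, CLPXP, YME1L and m-AAA for removal. Hepatocytes secrete most plasma proteins and are rich in both ER and mitochondria.

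The promoters of the members were searched for elements of the unfolded protein response. Many of the ER genes are known to be raised by that response. A high share of them with such an element is therefore a description and no independent result. Windows from 250 bases before to 50 bases after the annotated start, taken from RefSeq for build GRCr8, were at hand for 26 of the 32 genes (18 ER and 8 mitochondrial). The ER stress element, CCAAT and CCACG with any 9 bases between them, searched on both strands, was present in 8 of 18 ER windows (44.4%) and in 0 of 8 mitochondrial windows, against 22 of all 33469 windows (0.0657%). The related ER stress element II, ATTGG and CCACG with any 1 base between them, was present in the windows of Hyou1, Dnajb11 and Herpud1, 3 of 18 (16.7%), against 17 of all windows (0.0508%). A window with either element was found for 11 of 18 ER genes (61.1%) and for 39 of all windows (0.117%). Matches are shown for the ER genes whose levels are described most closely below, with the fixed bases of the element in capitals and 12 bases on each side, fewer where the annotated start came first. Each line is read 5′ to 3′ on the strand named.
Hspa5, chr3:38452961-38453003, plus strand: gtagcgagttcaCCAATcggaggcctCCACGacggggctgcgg
Hsp90b1, chr7:23012335-23012377, plus strand: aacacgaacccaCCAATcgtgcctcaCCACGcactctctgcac
Creld2, chr7:121789227-121789269, minus strand: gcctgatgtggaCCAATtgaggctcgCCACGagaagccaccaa
Calr, chr19:40213123-40213165, minus strand: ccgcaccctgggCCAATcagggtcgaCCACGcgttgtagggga
Xbp1, chr14:84604546-84604588, plus strand: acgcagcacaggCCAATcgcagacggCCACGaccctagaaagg
Hyou1, chr8:53602682-53602716, minus strand: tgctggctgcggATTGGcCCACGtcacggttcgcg
Dnajb11, chr11:91672800-91672822, minus strand: tcccaggcggcgATTGGcCCACG
Herpud1, chr19:10614809-10614843, minus strand: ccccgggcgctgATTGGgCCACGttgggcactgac

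The Hsp90b1 window held 2 copies of the ER stress element and the Hyou1 window 2 copies of element II, of which 1 each is shown. The other ER windows with an ER stress element were those of Dnajc3, Canx and Derl3. The shorter letters inside both elements are common: CCACG occurred in 31.6% of all windows and CCAAT in 37.5%. Both were in all 18 ER windows, which counts the copies inside the longer elements. Of the 8 mitochondrial windows, 6 held CCACG and 1 held CCAAT. The XBP1 site GACGTGG was found in the Hyou1 window (2.32% of all windows hold it), and the ATF element TTGCATCA in the Herpud1 window (0.795%). Hspd1 and Hspe1, which encode Hsp60 and its partner Hsp10, start 290 bases apart on opposite strands of chromosome 9 and shared a heat shock element, TTC, GAA and TTC with any 2 bases between each. This motif was added after the members were looked at. It was in 2 of 8 mitochondrial windows (25%) and in 0.798% of all windows, and the shared copy is shown on the plus strand.
Hspe1 and Hspd1, chr9:64084250-64084286, plus strand: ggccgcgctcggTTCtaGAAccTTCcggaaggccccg

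**Figure D1:**
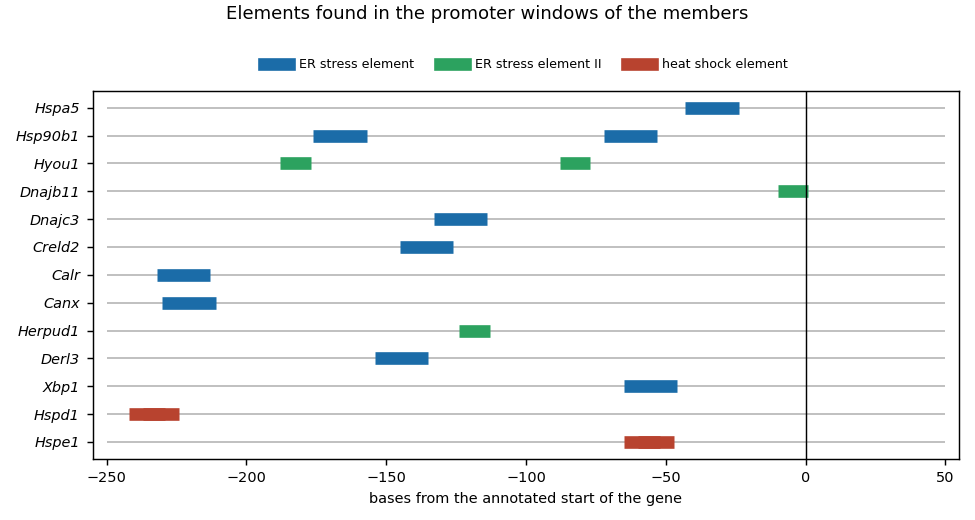
Positions of the searched elements in the promoter windows of the members, as distance in bases from the annotated start (x axis), with 1 row per gene. ER stress elements I and II lie in 11 of 18 ER windows and in 0 of 8 mitochondrial windows, and the heat shock element lies in the Hspd1 and Hspe1 windows.

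Values are the log2 of the deposited intensity of 1 probe set per gene, a level meant for comparison between arrays. Between genes it serves here only to place a gene roughly on the scale, and does not measure which gene has more RNA. The median deposited intensity of an array lay between 30.9 and 34.5. Derl3, which encodes a pore protein of the degradation route, had a mean level of 5.00, below that of the median gene (5.86), so that it may not stand above background. All other measured members were above the median gene, and the highest group mean, 17.95 for Calr, lay below the top of the scale at 19.93. The hepatocyte markers Alb (mean level 19.89) and Ttr (19.16) were near that top. Markers of exocrine pancreas, a tissue with much ER, were all below the median gene (6 of 6), as were 4 of 5 plasma cell markers, with Mzb1 at 4.41 and Tnfrsf17 at 5.02. The fifth plasma cell marker is Xbp1 itself, which hepatocytes also express. At day 3, 5 of 9 stellate cell and fibroblast markers were lower with phenformin at an adjusted p under 0.05 in the limma fit. Of all genes, 1.15% passed that threshold at day 3. The list's mean level was 9.25 ± 0.11 (SD, n = 4) in control livers and 8.61 ± 0.05 in treated livers at day 3, and 8.85 ± 0.05 and 8.83 ± 0.09 at day 14. The sums of its 9 intensities ranged from 13300 to 17300, 10400 to 12300, 11800 to 14100 and 11200 to 17300 in the same order. Of 7 endothelial markers, 1 was lower at day 3, and no hepatocyte, plasma cell, lymphocyte, Kupffer cell, cholangiocyte, erythroid or pancreas marker passed the threshold at day 3 or day 14. Over both days, 5 of 9 stellate and 1 of 7 endothelial markers were lower and 1 of 5 cholangiocyte markers was higher. The share of all genes that passed over both days was 3.16%. All 4 erythroid markers were below 0 in that contrast (median -0.43, 3 of 4 with an unadjusted p under 0.05, 0 called). Of all genes, 16.2% reached that unadjusted p, as did 6 of 9 stellate, 4 of 7 endothelial and 3 of 5 cholangiocyte markers. In the other lists 1 of 6 pancreas markers reached it, and 0 hepatocyte, plasma cell, lymphocyte or Kupffer cell markers. The part of these markers in the results below was not tested. In a piece of whole liver, fewer cells of a type and less RNA per cell cannot be told apart.

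Whether phenformin changed the ER and mitochondrial folding genes was asked at each day, over 4 treated and 4 control arrays. At day 3, 0 of 31 members passed an adjusted p under 0.05 in the limma fit, where 1.15% of all genes did. An unadjusted p under 0.05 was reached by 4 of 31 members (12.9%), against 10.6% of all genes. At day 14, 0 of 31 passed, against 0.321% of all genes, and 4 of 31 (12.9%) had an unadjusted p under 0.05, against 11.2%. The mean of the effects of both days, which uses all 16 arrays, gave 2 calls among 31 members (6.45%), against 3.16% of all genes: Clpx and Edem1, both lower with phenformin. For comparison, 1.61% of all genes were lower in that contrast, and 6 of 31 members (19.4%) had an unadjusted p under 0.05, against 16.2%. No member passed when the effect at day 14 was compared with that at day 3 (0 of 31 called, against 0.00453% of all genes, and 0 of 31 with an unadjusted p under 0.05, against 4.68%). The 95% interval lay within 1.5-fold of no change for 13 of 21 ER and 10 of 10 mitochondrial members at day 3 and for 15 of 21 and 9 of 10 at day 14, against 80.3% and 80.5% of all genes. The intervals of the other members reached beyond that.

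**Figure D2:**
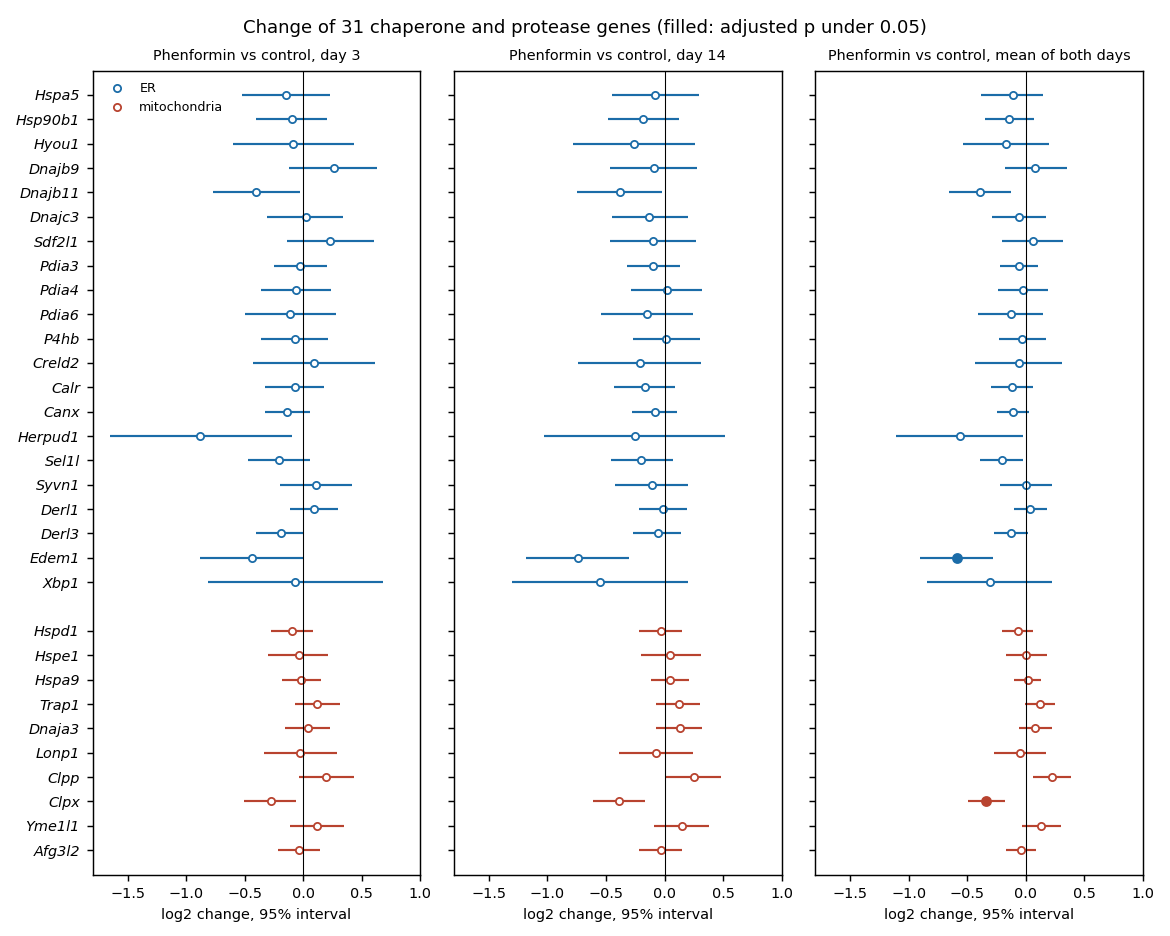
Log2 change of each of the 31 measured members with phenformin (x axis, point) and its 95% interval (line) at day 3, at day 14 and as the mean of both days, ER genes above and mitochondrial genes below. Filled points mark the calls, Edem1 at -0.59 and Clpx at -0.34 for the mean of both days, and most other intervals include 0.

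Among the ER genes, the 1 change that passed was in the degradation route. Edem1 encodes a mannosidase-like lectin that extracts misfolded glycoproteins from the calnexin cycle. Its level at day 3 was 15.83, 16.33, 16.56 and 15.70 in the control livers and 15.63, 15.87, 15.54 and 15.62 in the treated livers. The day 14 levels were 16.53, 16.48, 16.41 and 15.60 in the control livers and 15.71, 15.58, 15.35 and 15.42 in the treated livers. At day 3, 3 treated livers were below every control and replicate 2 was above the lower 2 controls, so the groups overlapped. At day 14, 3 control livers were well above every treated liver and replicate 4 of the controls lay among the treated ones. The difference was -0.44 ± 0.21 on the log2 scale (SE) at day 3 (adjusted p = 0.47) and -0.74 ± 0.21 at day 14 (adjusted p = 0.146). Averaged over both days it was -0.59 ± 0.15, 1.51-fold lower (95% interval 1.21 to 1.87, adjusted p = 0.0405). The size of the difference changed little in other fits, from -0.70 to -0.51 when 1 array was left out and -0.59 with quantile normalization and with centring. The adjusted p was close to the threshold and passed it in 11 of 24 other fits, of which 5 of the 16 that left out 1 array, with a highest value of 0.0892 under quantile normalization. Without replicate 4 of the day 14 controls, the day 14 difference alone was -0.96 with an adjusted p of 0.0252.

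Herpud1, a membrane protein that organises the degradation complex and is strongly induced in ER stress, had the widest spread of all members. Its level at day 3 was 9.46, 8.84, 10.12 and 8.91 in control livers and 9.26, 8.65, 8.25 and 7.66 in treated livers. On day 14 the values were 9.02, 9.22, 9.59 and 8.72 in control livers and 8.79, 8.65, 9.76 and 8.35 in treated livers. Treated livers were low at day 3 except for replicate 1, and the groups overlapped at both days. On the log2 scale the difference was -0.88 ± 0.36 at day 3 (adjusted p = 0.384) and -0.25 ± 0.36 at day 14 (adjusted p = 0.875). With an interval from 1.07 to 3.14-fold lower at day 3, the size of the difference is poorly known.

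Sel1l, the adaptor that holds the ubiquitin ligase of this route together, read 14.30, 14.45, 13.96 and 14.57 in control livers and 14.12, 14.10, 14.07 and 14.15 in treated livers of day 3. At day 14 it read 14.31, 14.40, 14.21 and 13.92 in control livers and 14.20, 13.92, 13.95 and 13.99 in treated livers. Treated livers sat in the lower part of the control range and overlapped it at both days. The log2 difference was -0.21 ± 0.12 (adjusted p = 0.62) and -0.20 ± 0.12 (adjusted p = 0.609). Syvn1, the ligase HRD1 itself, differed by 0.11 ± 0.15 at day 3 and -0.11 ± 0.15 at day 14. Derl1 and Derl3, which line the exit channel, differed by 0.09 ± 0.10 and -0.19 ± 0.10 at day 3 and by -0.01 ± 0.10 and -0.06 ± 0.10 at day 14. None of these passed.

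Xbp1 encodes the transcription factor of the IRE1 branch and is itself a target of ATF6. The array does not separate its spliced from its unspliced mRNA. Its level ranged from 15.67 to 17.43 in control livers and from 16.09 to 16.86 in treated livers of day 3. At day 14 it ranged from 15.64 to 17.17 in control livers and from 15.59 to 16.21 in treated livers. The control livers spread so widely that treated livers fell inside their range at day 3 and nearly so at day 14. On the log2 scale the difference was -0.07 ± 0.35 at day 3 and -0.55 ± 0.35 at day 14 (adjusted p = 0.622).

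The Hsp70 and Hsp90 chaperones of the ER showed no difference that passed. Hspa5, which encodes BiP, the Hsp70 that also restrains the stress sensors, ranged from 16.29 to 16.83 in control and 16.20 to 16.73 in treated livers of day 3, and from 15.90 to 16.75 and 16 to 16.42 at day 14. Its log2 difference was -0.15 ± 0.18 at day 3 and -0.08 ± 0.18 at day 14, and a rise above 1.17-fold at day 3 or 1.23-fold at day 14 lay outside the 95% interval. Hsp90b1, the ER Hsp90 known as GRP94, differed by -0.10 ± 0.14 and -0.18 ± 0.14. Hyou1, an Hsp110 type exchange factor for BiP, differed by -0.09 ± 0.24 and -0.26 ± 0.24.

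Of the cochaperones that steer BiP, Dnajb11 came closest to the threshold, which it did not pass. Its level at day 3 was 11.49, 11.67, 11.00 and 11.68 in control livers and 10.89, 11.28, 11.06 and 10.99 in treated livers. The day 14 levels were 10.90, 10.54, 11.03 and 11.23 in control livers and 10.62, 10.69, 10.17 and 10.68 in treated livers. At each day 1 control liver, replicate 3 of day 3 and replicate 2 of day 14, lay within the treated range, and the other 3 were above every treated liver of that day. The log2 difference was -0.40 ± 0.17 at day 3 (adjusted p = 0.412), -0.38 ± 0.17 at day 14 (adjusted p = 0.426) and -0.39 ± 0.12 over both days (adjusted p = 0.102). Without replicate 3 of the day 3 controls, the difference over both days was -0.47 with an adjusted p of 0.04. Dnajb9, which helps to keep IRE1 inactive, differed by 0.26 ± 0.18 at day 3 and -0.09 ± 0.18 at day 14. Dnajc3, also called p58IPK, differed by 0.02 ± 0.15 and -0.13 ± 0.15, and Sdf2l1, a partner of Dnajb11, by 0.23 ± 0.17 and -0.10 ± 0.17.

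The folding enzymes and lectins showed no difference that passed. The disulfide isomerases Pdia3, Pdia4, Pdia6 and P4hb differed by -0.11 to -0.03 at day 3 and by -0.15 to 0.02 at day 14, on the log2 scale. Creld2, an ER stress responsive isomerase, differed by 0.09 ± 0.25 and -0.21 ± 0.25. Calr and Canx, the lectins that hold glycoproteins during folding, differed by -0.07 ± 0.12 and -0.14 ± 0.09 at day 3 and by -0.17 ± 0.12 and -0.08 ± 0.09 at day 14. All treated and control ranges in this group overlapped at both days.

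**Figure D3:**
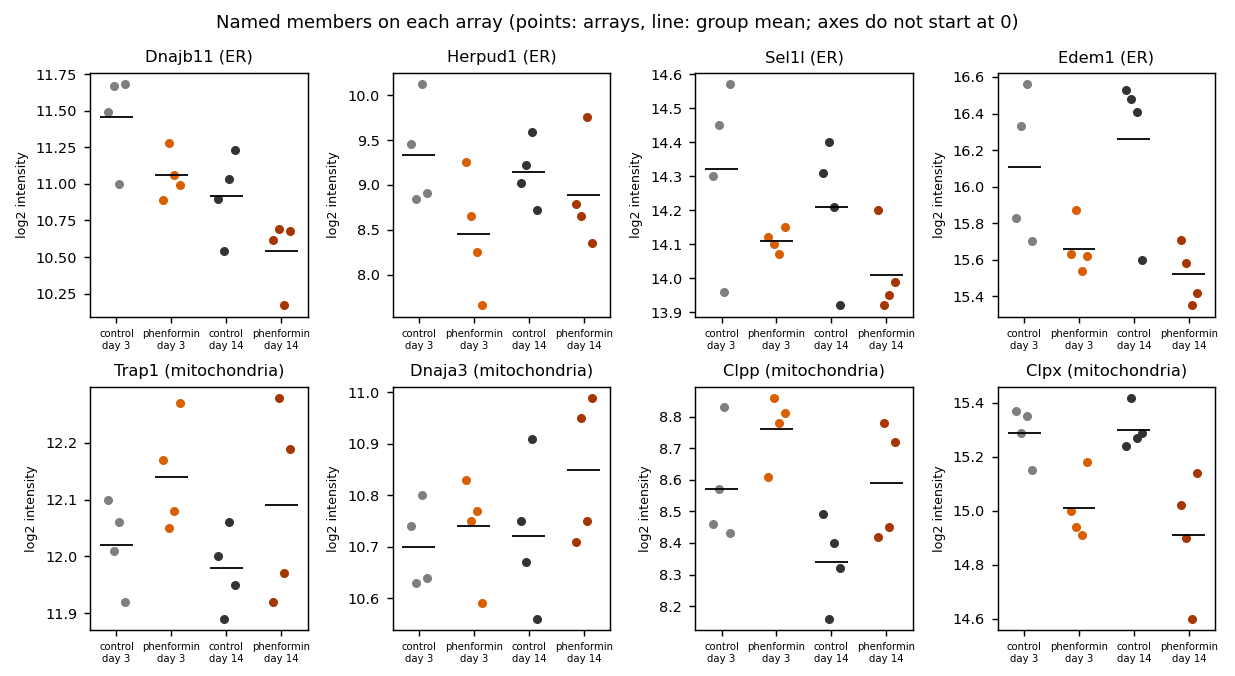
Log2 level (y axis, not starting at 0) of the 8 members described array by array, with a point per array and a line at the mean of the 4 arrays of a group. Clpx lies lower in treated livers at both days, Edem1 has 1 low control at day 14 (15.60), and Herpud1 spreads over more than a log2 unit.

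In mitochondria, the 2 subunits of the CLPXP protease had opposite signs. Clpx encodes the ATP-driven unfoldase that feeds substrates to the peptidase and also regulates the enzyme that starts heme synthesis. Its level at day 3 was 15.37, 15.29, 15.35 and 15.15 in control livers and 15, 14.94, 14.91 and 15.18 in treated livers. On day 14 the values were 15.24, 15.42, 15.27 and 15.29 in control livers and 15.02, 14.90, 14.60 and 15.14 in treated livers. All treated livers were below all controls at day 14, and at day 3 the ranges overlapped by the values of replicate 4. At day 14 it was the 1 member of 31 whose groups did not overlap (2.44% of all genes separated in this direction), and at day 3 there was 0 of 31 (7.68% of all genes in either direction). On the log2 scale the difference was -0.28 ± 0.10 at day 3 (adjusted p = 0.304) and -0.39 ± 0.10 at day 14 (adjusted p = 0.13). Over both days it was -0.34 ± 0.07, 1.26-fold lower (95% interval 1.13 to 1.41, adjusted p = 0.0236). The call held in 23 of 24 other fits and was lost without replicate 1 of the day 3 controls (adjusted p = 0.0516).

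Clpp, the peptidase itself, read 8.46, 8.57, 8.83 and 8.43 in control livers and 8.61, 8.86, 8.78 and 8.81 in treated livers of day 3. At day 14 it read 8.49, 8.16, 8.40 and 8.32 in control livers and 8.42, 8.78, 8.45 and 8.72 in treated livers. Treated livers sat towards the top, with 1 control liver inside their range at each day. The log2 difference was 0.19 ± 0.11 at day 3 (adjusted p = 0.596), 0.25 ± 0.11 at day 14 (adjusted p = 0.413) and 0.22 ± 0.08 over both days (adjusted p = 0.15), so it did not pass. Lonp1, the LON protease of the matrix, differed by -0.03 ± 0.15 and -0.07 ± 0.15. The inner membrane proteases Yme1l1, which faces the intermembrane space, and Afg3l2, a subunit of the m-AAA protease, differed by 0.12 ± 0.11 and -0.04 ± 0.09 at day 3 and by 0.15 ± 0.11 and -0.03 ± 0.09 at day 14.

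No mitochondrial chaperone passed the threshold. Hspd1 and Hspe1 differed by -0.10 ± 0.08 and -0.04 ± 0.12 at day 3 and by -0.03 ± 0.08 and 0.05 ± 0.12 at day 14. Hspa9, the Hsp70 that pulls proteins into the matrix, differed by -0.02 ± 0.08 and 0.05 ± 0.08, and a change above 1.16-fold in either direction lay outside both of its intervals. Of all members, Hspa9 had the smallest spread within groups (SD 0.09). Trap1, the mitochondrial Hsp90, read 12.10, 12.01, 12.06 and 11.92 in control livers and 12.17, 12.05, 12.08 and 12.27 in treated livers of day 3. The day 14 levels were 12.00, 11.89, 12.06 and 11.95 in control livers and 11.92, 12.28, 11.97 and 12.19 in treated livers. The groups overlapped at both days, and the log2 difference was 0.12 ± 0.09 at each (adjusted p = 0.721 and 0.704).

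Dnaja3, a cochaperone of the matrix Hsp70, read 10.74, 10.63, 10.80 and 10.64 in control livers and 10.83, 10.75, 10.77 and 10.59 in treated livers of day 3. On day 14 the values were 10.75, 10.67, 10.91 and 10.56 in control livers and 10.71, 10.95, 10.75 and 10.99 in treated livers. The ranges overlapped at both days, with 2 treated livers of day 14 above all controls. On the log2 scale the difference was 0.04 ± 0.09 at day 3 (adjusted p = 0.951) and 0.13 ± 0.09 at day 14 (adjusted p = 0.675).

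Set side by side, the ER genes lay mostly below 0 with phenformin and the mitochondrial genes around 0. At day 3 the median log2 change was -0.07 over the 21 ER genes and -0.02 over the 10 mitochondrial genes, and 15 of 21 ER genes were below 0, where 48% of all genes were. At day 14 the medians were -0.13 and 0.05, and 19 of 21 ER genes were below 0, where 50% of all genes were. Over both days the medians were -0.11 and 0.01, with 17 of 21 ER genes below 0 (49% of all genes), and the median of all genes was within 0.01 of 0 in each contrast. These genes vary together between animals and the signs are not independent, so the counts are a description. The lean was neither confined to the ER nor shared by all its genes. At day 3, 8 of 8 subunits of the cytosolic chaperonin CCT were below 0 (median -0.13), and 10 of 12 other ER degradation genes were above 0. The mean level of the ER genes was 13.14 ± 0.14 (SD, n = 4) in control and 13.03 ± 0.12 in treated livers of day 3, and 12.94 ± 0.12 and 12.76 ± 0.08 at day 14. By array it ranged from 12.94 to 13.26 and from 12.90 to 13.18 at day 3, and from 12.77 to 13.04 and from 12.65 to 12.83 at day 14, so that the treated and control arrays overlapped at both days. The mean level of the mitochondrial genes was 12.85 ± 0.05 and 12.85 ± 0.04 at day 3, and 12.80 ± 0.04 and 12.82 ± 0.11 at day 14. The mean change of the ER genes minus that of the mitochondrial genes was -0.10 at day 3 and -0.20 at day 14. The SD of the same quantity between single arrays of a group was 0.14. That SD is not the standard error of a difference between means of 4 arrays, for which no test was run. The ER medians and the ER minus mitochondrial change moved in size when single arrays were left out. Leaving out 1 array gave ER medians between -0.19 (without replicate 3 of the day 3 controls) and -0.02 (without their replicate 2) at day 3. At day 14 they lay between -0.21 (without replicate 2 of the controls) and -0.06 (without their replicate 4), and over both days between -0.17 and -0.07, without replicate 3 of the day 3 controls and replicate 4 of the day 14 controls. The ER minus mitochondrial change at day 3 lay between -0.18, without replicate 3 of the controls, and -0.04, without replicate 4 of the treated livers. At day 14 the same change lay between -0.26 and -0.17, and over both days between -0.19 and -0.12, so that it stayed below 0.

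**Figure D4:**
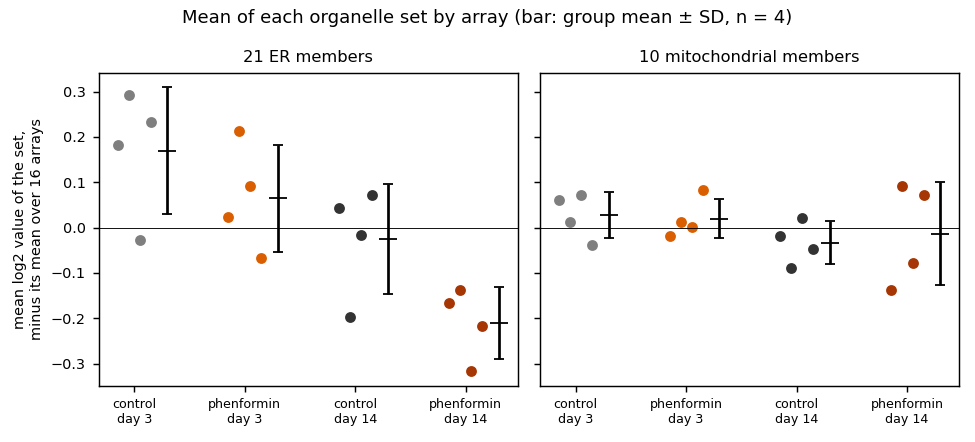
Mean log2 value of the 21 ER genes and of the 10 mitochondrial genes on each array (points), each minus its own mean over the 16 arrays, by group (bars: group mean ± SD, n = 4). The ER mean is 13.14 in day 3 controls and 12.76 in treated livers of day 14, with overlap between neighbouring groups, and the mitochondrial mean stays between 12.80 and 12.85.

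Most ER genes also had lower values at day 14 than at day 3, in control and in treated livers, and none of these differences passed. In control livers, day 14 against day 3 gave 0 of 31 calls (0.403% of all genes), a median log2 change of -0.19 over the ER genes and -0.03 over the mitochondrial genes, and 18 of 21 ER genes below 0 (51.2% of all genes). The ER median was -0.10 without replicate 2 of the day 14 controls. In treated livers it gave 0 of 31 calls (0% of all genes), medians of -0.26 and -0.06, and 19 of 21 ER genes below 0 (51.8% of all genes). An unadjusted p under 0.05 was reached by 7 of 21 ER genes (33.3%) and 0 of 10 mitochondrial genes in treated livers, where 7.71% of all genes reached it. In control livers 4 of 21 ER genes reached it (19%), against 7.15% of all genes. The arrays of the 2 days did not overlap in treated livers for 6 ER genes, all lower at day 14: Hsp90b1, Hyou1, Dnajb11, Pdia4, Creld2 and Calr. Of all genes, 2.15% separated in that direction. In control livers 0 of 21 ER genes separated, against 2.96% of all genes in that direction. Whether the difference between days itself differed between treated and control livers is the comparison of effects above, in which no member passed. Creld2 ranged from 9.53 to 10.14 at day 3 and from 8.35 to 9.24 at day 14 in treated livers, and from 9.10 to 10.04 and 8.65 to 9.62 in control livers. It differed by -0.88 ± 0.25 in treated livers (1.84-fold lower, 95% interval 1.28 to 2.65, adjusted p = 0.397) and by -0.58 ± 0.25 in control livers (adjusted p = 0.618). Hyou1 ranged from 12.36 to 12.86 at day 3 and from 11.42 to 12.26 at day 14 in treated livers, a difference of -0.78 ± 0.24 (adjusted p = 0.444), and differed by -0.61 ± 0.24 in control livers (adjusted p = 0.58). The comparisons between days use the same arrays as the comparisons between treatments. The day of collection and the age of the animals change together in them, and their parts cannot be told apart. In treated livers the length of phenformin feeding changes with both as well. Between the same days in control livers, all 9 stellate cell markers had lower values (median -0.44, 2 called) and all 10 Kupffer cell markers had higher values (median 0.44, 0 called), and their part was not tested.

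Across the 4 groups, treated livers of day 14 had the lowest mean for 16 of 21 ER genes (28.8% of all genes) and for 4 of 10 mitochondrial genes. Control livers of day 3 had the highest mean for 13 of 21 ER genes (26.3% of all genes) and for 3 of 10 mitochondrial genes. Of the 21 ER genes, 0 were highest in treated livers of day 14, where 27.2% of all genes were. Dnajb9 was the 1 ER gene that was lowest in day 3 controls (26% of all genes), with a range of 6.98 to 7.40 there against 6.97 to 7.74 in treated livers of that day.

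Much of the spread of the ER genes lay between animals of the same group. The median SD within groups was 0.23 over the ER genes and 0.13 over the mitochondrial genes, against 0.18 over all genes, and it reached 0.57 for Herpud1, 0.55 for Xbp1 and 0.38 for Hyou1 and Creld2. Replicate 3 of the day 3 controls was the lowest of its group for 15 of 21 ER genes, and replicate 2 of the day 14 controls for 13. Replicate 4 of the day 14 controls was the highest of its group for 14 of 21. In the same animals a few genes ran the other way. Edem1 (16.56), Herpud1 (10.12) and Dnajb9 (7.40) were highest of their group in replicate 3 of the day 3 controls, and Edem1 (15.60), Xbp1 (15.64), Sel1l (13.92) and Herpud1 (8.72) were lowest of theirs in replicate 4 of the day 14 controls. In treated livers, replicate 3 of day 14 was the lowest for 11 of 21 ER genes, while Herpud1 (9.76) and Xbp1 (16.21) were highest there. Of the 10 mitochondrial genes, 8 were lowest of their group in replicate 1 of the treated livers of day 14. The protocols do not state the hour of collection.

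**Figure D5:**
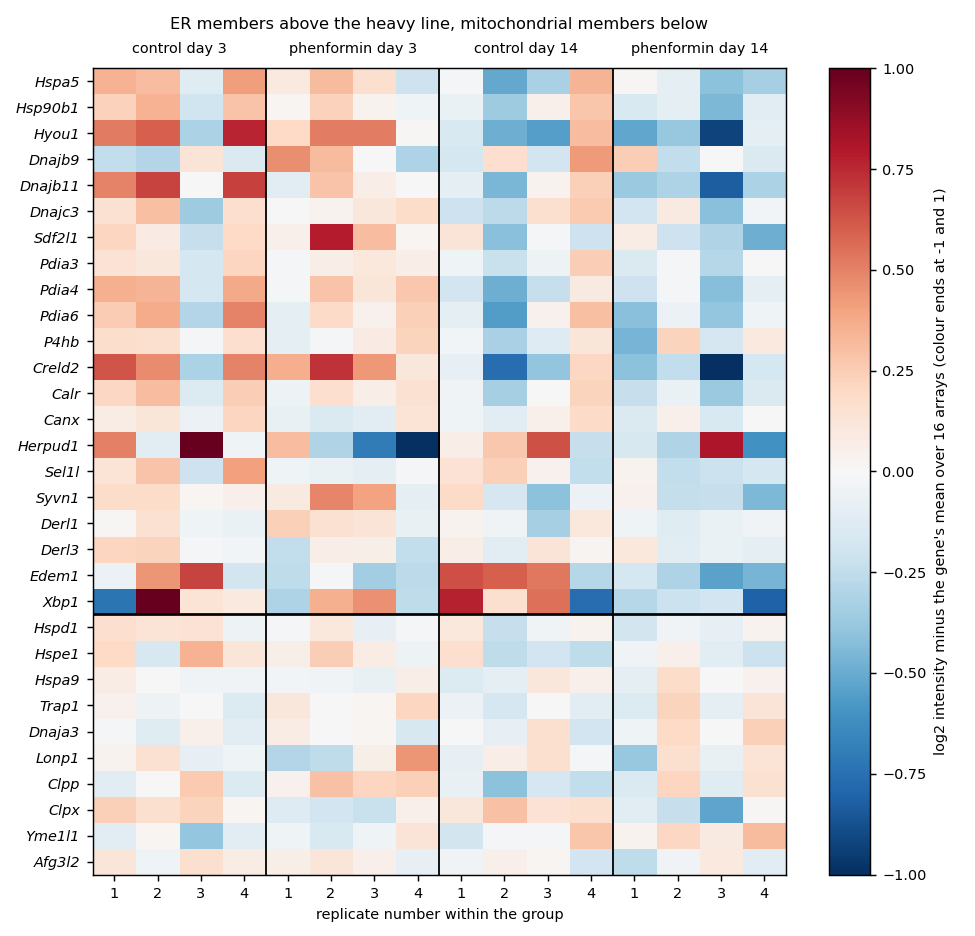
Deviation of each of the 31 members from its own mean over the 16 arrays (log2, colour scale) with 1 column per array and the groups side by side. Whole columns of ER genes shift together, as in replicate 3 of the day 3 controls (lowest of its group for 15 of 21), and Edem1, Herpud1 and Xbp1 depart from them in several columns.

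The ER genes with and without an ER stress element were set beside each other as a description. Over the 11 ER genes with either element, the median log2 change was -0.10 at day 3 and -0.18 at day 14, and over the other 7 with a window it was -0.06 and -0.10. Between days the medians were -0.19 and -0.19 in control livers and -0.29 and -0.15 in treated livers. The ER gene that was called, Edem1, has no match to either element in its window. Outside the list, 27 genes had a window with an element and 22 of them were measured. Their median change over both days was 0.03, and 2 were called (3.16% of all genes), both higher: Ppm1l, a phosphatase of the ER membrane, by 0.84 ± 0.17 (adjusted p = 0.0125) and Prkcz, an atypical protein kinase C, by 0.29 ± 0.07 (adjusted p = 0.0338).

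Other genes of the same pathways were read from lists of 103 entries, of which 99 were measured. Of 12 other genes of ER-associated degradation, 1 was called at day 3 (1.15% of all genes) and 2 over both days (3.16% of all genes), all higher and none lower, and their median change over both days was 0.09. Selenos, a selenoprotein that tethers the extraction machinery to the ER membrane, was 1.45-fold higher at day 3 (95% interval 1.24 to 1.70, adjusted p = 0.0223), 1.24-fold higher at day 14 (1.06 to 1.45, adjusted p = 0.264) and 1.34-fold higher over both days (1.2 to 1.5, adjusted p = 0.00785). Vcp, the ATPase p97 that pulls proteins out of the ER, was 1.25-fold higher over both days (1.14 to 1.38, adjusted p = 0.0113). At day 3, treated and control livers of this list did not overlap for 2 genes that were higher, Selenos and Vcp, and for 1 that was lower, Man1b1. Of all genes, 7.68% separated in either direction at that day. Selenos and Vcp act later in the route than Edem1, which was lower, but an order along the route was not tested. In this list the relatives Edem2 and Edem3 differed by 0.18 ± 0.10 and 0.03 ± 0.07 over both days. Erlec1 differed by 0.16 ± 0.08, Os9 by -0.02 ± 0.06 and Man1b1 by -0.19 ± 0.05 (adjusted p = 0.0574), and none of these passed.

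None of 11 ER stress sensors and regulators was called at day 3, at day 14 or over both days, and their median changes were -0.01, 0.12 and 0.06. Eif2ak3, which encodes PERK, differed by 0.27 ± 0.08 at day 3 (adjusted p = 0.195) and Trib3, a pseudokinase induced by ATF4, by 0.59 ± 0.24 (adjusted p = 0.377). At day 14 Ern1, which encodes IRE1, differed by -0.58 ± 0.18 (adjusted p = 0.209) and Atf4, the main transcription factor of the PERK branch, by 0.32 ± 0.17 (adjusted p = 0.527). Over both days Ern1 differed by -0.48 ± 0.13 (adjusted p = 0.0601). Of 19 other ER folding enzymes 0 were called in the 3 contrasts, with medians of -0.07, -0.09 and -0.09. Dnajc10, an ER reductase, differed by -0.40 ± 0.10 at day 3 (adjusted p = 0.0796) and Erp29, an isomerase relative, by -0.22 ± 0.07 (adjusted p = 0.207). Ganab and Prkcsh, the subunits of glucosidase II that trims glycans for the calnexin cycle, differed by -0.32 ± 0.12 (adjusted p = 0.318) and -0.45 ± 0.18 (adjusted p = 0.337) at day 14.

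Of 18 genes of translocation and N-glycosylation 0 were called in the 3 contrasts, with medians of -0.13, -0.01 and -0.07. At day 3 Rpn2, of the oligosaccharyltransferase, differed by -0.22 ± 0.10 (adjusted p = 0.418) and Sec61b, of the translocation channel, by -0.25 ± 0.11 (adjusted p = 0.42). At day 14 Ssr3 and Ssr1, of the complex beside that channel, differed by -0.13 ± 0.10 (adjusted p = 0.712) and 0.12 ± 0.09 (adjusted p = 0.714). In control livers all 18 were lower at day 14 than at day 3, with a median of -0.27, and 0 were called. Lists outside the ER were mostly lower in that comparison too. These were 8 of 8 subunits of the cytosolic chaperonin CCT (median -0.17), 13 of 15 other mitochondrial proteases and scaffolds (-0.12) and 12 of 16 mitochondrial import genes (-0.10). The 8 subunits of the cytosolic chaperonin CCT gave 0 calls, with medians of -0.13, -0.01 and -0.07. Cct2 differed by -0.22 ± 0.08 (adjusted p = 0.263) and Cct6a by -0.21 ± 0.10 (adjusted p = 0.472) at day 3, and by -0.08 ± 0.08 and -0.12 ± 0.10 at day 14.

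Of 16 genes of mitochondrial protein import 0 were called in the 3 contrasts, with medians of -0.01, 0.12 and 0.06. Tomm40, the outer membrane pore, differed by -0.23 ± 0.11 (adjusted p = 0.47) and Pam16, of the import motor, by 0.21 ± 0.11 (adjusted p = 0.539) at day 3. At day 14 Timm17a, of the inner membrane channel, differed by 0.25 ± 0.09 (adjusted p = 0.312) and Dnajc19, also of the motor, by 0.25 ± 0.10 (adjusted p = 0.373). Of 15 other mitochondrial proteases and scaffolds 0 were called at day 3 and day 14 and 1 over both days (3.16% of all genes). Their medians were 0.08, 0.11 and 0.05. The called gene was Parl, a rhomboid protease of the inner membrane, which was 1.2-fold higher (95% interval 1.10 to 1.31, adjusted p = 0.0315). Hscb and Mipep differed by 0.22 ± 0.13 (adjusted p = 0.616) and 0.15 ± 0.09 (adjusted p = 0.62) at day 3, and Stoml2 by 0.17 ± 0.08 (adjusted p = 0.414) at day 14.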

How the data were processed

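RNA from 16 rat livers was hybridised to a 1-colour Affymetrix whole-transcript array. The deposited table gives a linear intensity per probe set, made with RMA per the submitters' processing notes. RMA corrects background, normalizes between arrays and summarises probes. Its program, its settings and the step to a linear scale were not stated, so folds are ratios of deposited values. The log2 of each deposited intensity was taken as it stood, without an added constant or a minimum. Of 68842 probe sets, 23446 carried 1 gene symbol, 505 several and 44891 none. The probe set with the highest mean stood for a gene, and 3 members had more than 1. The second set of Yme1l1 gave 0.12 at day 3 and 0.14 at day 14. Those of Derl3 (mean level 4.91) and Hyou1 (4.39) lay below the median gene. That of Derl3 gave -0.36 at day 3 (unadjusted p = 0.0431 in a limma fit of all probe sets with 1 symbol). That of Hyou1 gave 0.02 between days in treated livers. The probe set's chromosome equalled that in GRCr8 for 31 of 31 members. In R 4.3.3, limma 3.58.1 fitted 4 group means to each of 22093 genes, which left 12 degrees of freedom, and p-values were adjusted by Benjamini-Hochberg over all genes, with a threshold of 0.05. Every adjusted p is from this fit unless another is named. Intervals are 95% intervals and take a gene's spread as equal in the 4 groups. No pair of arrays shared more than 6 equal values. The number of arrays limits the precision. The fitting code was tested on simulated data.

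The members, companion lists and alternatives were chosen with earlier results of these data known. Every member is named. Values on each array are given for members called in any contrast and for the 3 per organelle with the smallest p at day 3 and at day 14. In each companion list, called genes are named, otherwise the 2 with the smallest p at each day. Deviations of same-numbered arrays from their group means correlated between -0.11 and 0.18 (24 pairs, median 0.01), so replicate numbers were not taken to pair samples. Alternatives were a robust prior with limma's intensity trend, a minimum level, quantile normalization, centring on array medians, a pseudocount of 16, array weights, the replicate number as a block, the mean of a gene's probe sets, the compared arrays alone, and leaving out each array. Detection calls were not used here.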

Additional observations from a re-analysis of the deposited data

Results flagged for a closer look

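In 8 of 132 groups of 4 arrays tested (31 genes and both organelle means), 6.06%, the highest or lowest array stood far from the other 3 by Dixon's criterion, which chance meets in about 1 in 20 groups. In day 3 controls, replicate 3 was low for Pdia4 (14.04, others 14.56 to 14.60), P4hb (16.40, others 16.57 to 16.59) and Creld2 (9.10, others 9.89 to 10.04), and replicate 4 was low for Hspd1 (14.95, others 15.14 to 15.17). In day 14 controls, replicate 4 was low for Edem1 (15.60, others 16.41 to 16.53) and replicate 1 was high for Hspe1 (14.75, others 14.33 to 14.39). In treated livers of day 14, replicate 3 was low for Dnajb11 (10.17, others 10.62 to 10.69) and replicate 4 for Xbp1 (15.59, others 16.12 to 16.21).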

How the results depend on the processing

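Of 1184 values recomputed under other settings, 1152 were classed as unchanged. For single genes this meant the same side of the threshold and the same direction. For medians and means without a test it meant a move by less than the spread between replicates. For counts of called members it meant an equal count or a count within 1.5-fold, whichever genes made it up. Without replicate 3 of the day 3 controls, the count over both days stayed at 2, although Edem1 (adjusted p = 0.0747) was lost and Dnajb11 (adjusted p = 0.04) was gained. Of 592 changes recomputed for the members described array by array, at day 3, at day 14 and over both days, 0 changed sign. The other members were not followed singly. Of 444 medians and means without a test, 7 changed sign, all from values close to 0: the mitochondrial median over both days (0.01, at -0.01 without 1 of 3 arrays) and at day 3 (-0.02, at 0.01 without 1 of 2 arrays), and the difference between days in the ER median effect (-0.08, at 0.01 with quantile normalization and 0.05 without replicate 3 of the day 3 controls). No other setting changed the counts of members called at day 3 or between days, all 0. The count over both days, 2 in the main setting, fell to 1 (Clpx) with quantile normalization and with centring on array medians, where the difference of Edem1 was still -0.59 with adjusted p-values of 0.0892 and 0.0535, and ranged from 1 to 2 when 1 array was left out. The count at day 14 ranged from 0 to 1, with Edem1 called without replicate 4 of the controls. The difference between days in the ER median effect ranged from -0.19 to 0.05 when 1 array was left out. The mitochondrial median between days in control livers, -0.03, was -0.14 with quantile normalization. With the replicate number as a block, the count over both days was 2, and the block changed no other count or call of members. Counts over all genes moved with the setting: over both days they were 699 in the main setting and 522 with centring, and 915 of 15465 genes passed with the filter on low values. At day 14, 71 genes were called in the main setting, 151 with that filter, 131 with a pseudocount of 16 and 23 with the compared arrays alone. At day 3 the count was 254, and 405 with array weights. Leaving out 1 array gave as few as 421 over both days, 102 at day 3 and 30 at day 14, and as many as 132 at day 14. Between days in control livers 89 genes were called, 149 with array weights, 47 with the block and 0 with the compared arrays alone. The causes were not tested. Genes near the bottom of the scale, among the members Derl3, may not stand above background.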
